A study of Mus musculus with 12 samples.

Results

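RNA of male mice lacking sphingosine kinase 2 (SphK2) was compared between a Western diet with sugar water (WDSW) and a control diet with normal water (CDNW). The comparison rests on 6 of the 12 libraries of the study, 3 from WDSW SphK2-/- mice and 3 from CDNW SphK2-/- mice, chosen by the diet and genotype written above each column of the deposited workbook. The other 6 libraries come from wild-type mice, 3 on WDSW and 3 on CDNW, and serve here to set the diet difference in the knockout beside that in the wild type. All 12 mice were male on the C57BL6-NJ background. The knockout is constitutive, so every cell of these mice lacks the gene from conception, and the 6 knockout mice share it. Per the labels, feeding began between 12 and 18 weeks of age and ran for 16 weeks, ad libitum. Labelled ages do not all fit those times. They were 221, 217 and 252 days in WDSW knockouts and 259, 253 and 250 days in CDNW knockouts. The ages of 250 days or more, in 4 of the 6 knockouts, exceed the latest start plus 16 weeks. The start or length of feeding is thus uncertain for those mice if the ages are those at the end. Wild-type mice were 226, 226 and 232 days old on WDSW and 231, 231 and 232 days old on CDNW.

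SphK2 phosphorylates sphingosine, in the nucleus and mitochondria among other places, and makes the lipid signal sphingosine 1-phosphate. A Western diet with sugar in the drinking water is a feeding model of metabolic dysfunction-associated steatohepatitis (MASH), in which the liver stores fat and becomes inflamed. In such livers monocytes that carry the receptor Ccr2 enter from the blood and turn into macrophages, some of which take up lipid and carry the receptor Trem2, while resident Kupffer cells can be lost. Hepatocytes make most of the complement proteins, hepcidin and other plasma proteins. The series title states the question, whether loss of SphK2 raises liver inflammation in an early form of this model, and it is the title that names the liver. The hepatocyte products C3 and Hamp were among the 10 most abundant genes measured.

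The panel measured 547 mouse genes with barcoded probes, and the 453 with an average of 20 normalized counts or more across all 12 libraries were tested. Recovered whole counts summed to 440842 to 643638 per library. The Sphk2 transcript was not analysed here, so its loss was not checked. All levels are normalized counts on the linear scale, and all differences are log2(level + 1) in WDSW minus CDNW, from limma fitted to all 12 libraries with Benjamini-Hochberg adjustment over the 453 genes at 0.05. In bulk tissue a change in the number of cells of a type and a change in RNA per cell cannot be told apart.

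A feature of the libraries bears on every result. In each of the 4 groups, replicate 3 lay close to the average of replicates 1 and 2 of the same group. Among the genes for which replicates 1 and 2 differed over 2-fold, replicate 3 fell between them in 7 of 7 in WDSW knockouts, 49 of 54 in CDNW knockouts, 52 of 55 in WDSW wild type and 7 of 7 in CDNW wild type. Of the 55 pairs of other libraries, the weighted average of its own group's replicates 1 and 2 came closest to each replicate 3, within 1.10 to 1.22 times the error of counting alone. The weight of replicate 1 in it was 0.531 in WDSW knockouts and 0.552 in CDNW knockouts. The own-group pair also came closest to replicate 2 of WDSW and of CDNW knockouts, at 1.39 and 1.44 times that error. Its weight there was 1 on replicate 3 and 0 on replicate 1. Replicate 2 of CDNW wild type fell between the others of its group in 6 of 6 such genes. Over all 453 genes, replicate 3 fell between the others in 40.2% to 58.1%, and replicates 1 and 2 in 19.2% to 31.6%. The labels give replicate 3 an animal number and an age of its own, and the sources used here do not say whether its RNA was a pool. A group of 3 libraries may therefore hold fewer than 3 independent animals, p-values from 12 libraries may be too small, and list counts and the calls lost are also given for the 8 libraries numbered 1 and 2.

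**Figure D1:**
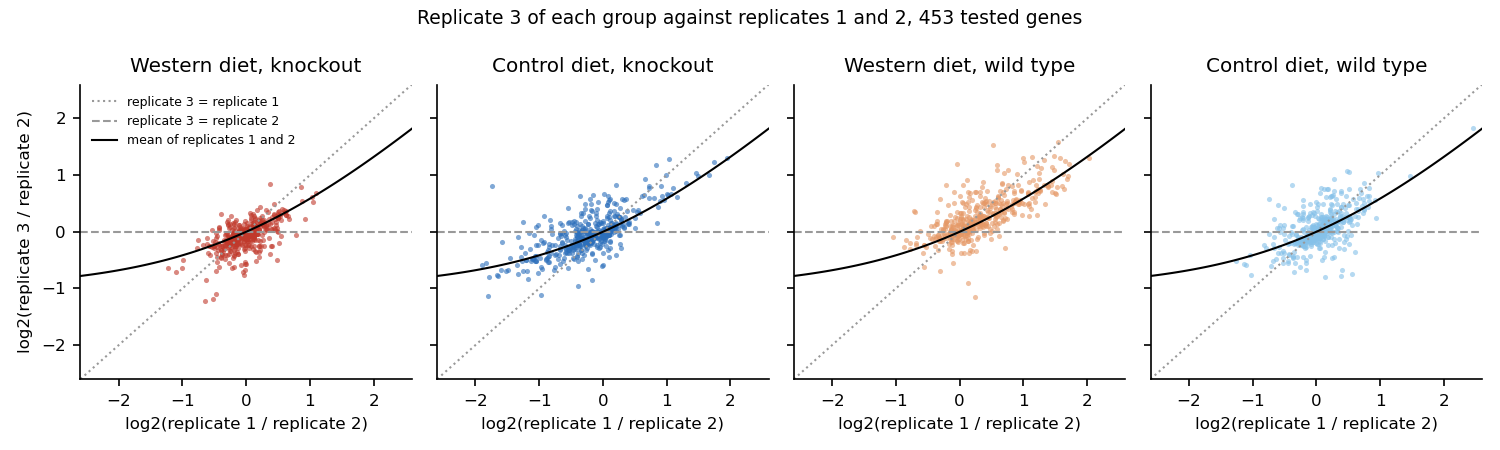
Each panel is 1 group and each point 1 of the 453 tested genes, with the log2 ratio of replicate 1 over replicate 2 on the x axis and of replicate 3 over replicate 2 on the y axis. The points follow the black line, the mean of replicates 1 and 2, rather than the dotted or dashed lines on which replicate 3 would equal replicate 1 or replicate 2.

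The Western diet moved a large part of the panel in the knockout. Of the 453 genes, 205 passed (45.3%), 169 of them higher (37.3%) and 36 lower (7.95%), and the median gene differed by 0.27. With the 8 libraries 62 genes passed (13.7%), 55 higher (12.1%) and 7 lower (1.55%), and all 62 were among the 205. The split by direction depends on the scaling. Factors that the deposited values carry are 0.772 to 0.924 in WDSW knockouts and 0.988 to 1.28 in CDNW knockouts, and recentring each library on the median ratio to the others, which brings the median gene to 0, gave 108 higher and 96 lower. Quantile normalization gave 82 higher and 111 lower, and recentring on each library's median gave 55 higher and 228 lower, with the median gene at -0.46. Counts for the other 3 scalings are given in this order, median ratio, quantile and library median. List counts under these scalings are to be read beside the counts just given for all 453 genes. Those with the 8 libraries are to be read beside 12.1% higher and 1.55% lower. Of the 205 genes, 39 higher and 6 lower passed in the same direction under all 4 scalings and with the 8 libraries. These 45 were picked after their values were seen. Each also passed when age was added to the 12-library fit, which cannot separate age from diet, as given below.

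Markers of monocytes and macrophages were higher on the Western diet throughout. All 16 tested members of the list passed as higher, against 37.3% of all genes, with a median difference of 1.37 against 0.27 for all genes. With the 8 libraries 5 passed as higher, against 12.1% of all genes. The other 3 scalings left 15, 12 and 10 higher and none lower. Ccr2, the receptor through which monocytes are drawn to Ccl2, stood at 267, 279 and 273 in WDSW knockouts and 51.5, 58.7 and 52.4 in CDNW knockouts. The 3 Western-diet libraries lay close together and far above all 3 control libraries, a log2 difference of 2.31 (SE 0.31, limma adjusted p = 0.00026, and 0.037 with 8 libraries). Cybb, the catalytic subunit of the phagocyte NADPH oxidase, had 805, 973 and 912 in WDSW knockouts and 310.2, 349.8 and 267 in CDNW knockouts, a difference of 1.54. Tyrobp, the adaptor that carries the signal of Trem2 into the cell, had 1643, 1935 and 1719.9 in WDSW knockouts and 647, 725 and 673 in CDNW knockouts, a difference of 1.37. Neither gene's groups overlapped. The summed level of the list was 9155 to 10694 in WDSW knockouts and 3736 to 4490.2 in CDNW knockouts.

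Markers of lipid-associated macrophages formed part of this rise. All 5 tested members passed as higher, against 37.3% of all genes (median 1.45), 3 of them with the 8 libraries, against 12.1% of all genes. Trem2, a lipid-sensing receptor of these cells, had 168, 212 and 178 normalized counts in WDSW knockouts and 25.2, 52.3 and 44.5 in CDNW knockouts. Its lowest Western-diet library was 3.20 times its highest control library, and the fitted fold was 4.65 (log2 2.22, SE 0.33, adjusted p = 0.00033). Itgax, which encodes the integrin CD11c, had 157, 144 and 135 in WDSW knockouts and 22.1, 34.5 and 37.5 in CDNW knockouts, a difference of 2.21. Cd36, a fatty acid uptake receptor that hepatocytes also express, varied more, with 3387, 4789 and 4048 in WDSW knockouts and 2679, 695 and 1719.8 in CDNW knockouts. Control replicate 1 came near the Western-diet libraries, and the difference of 1.45 (adjusted p = 0.012) was 0.91 without control replicate 2 and did not pass with the 8 libraries (0.13). Slamf7, a surface receptor of the SLAM family on leukocytes, had 76.5, 90.6 and 71.8 in WDSW knockouts and 14.7, 12.8 and 22.7 in CDNW knockouts, a difference of 2.22.

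Markers of resident Kupffer cells did not move together. Of 4 tested, 2 were higher and 2 lower, with a median of -0.07, and none passed with the 8 libraries, where 4 had an unadjusted p under 0.05. C1qb, a chain of the first complement component that many macrophages make, had 2563, 3126 and 2726 in WDSW knockouts and 1188, 1443 and 1242 in CDNW knockouts, a difference of 1.12. C1qa of the same complex differed by 0.78. Cd163, the scavenger receptor for haemoglobin bound to haptoglobin, was lower, with 58.4, 49.9 and 41.7 in WDSW knockouts and 97.8, 119 and 119.5 in CDNW knockouts (-1.15, SE 0.23, adjusted p = 0.0016). Marco, a scavenger receptor for bacteria and particles, had 169, 79.5 and 127 in WDSW knockouts and 218, 240.0 and 228 in CDNW knockouts (-0.93, adjusted p = 0.012). Both scavenger receptors were below the controls in each of the 3 Western-diet libraries, but their adjusted p was 0.082 and 0.14 with the 8 libraries.

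**Figure D2:**
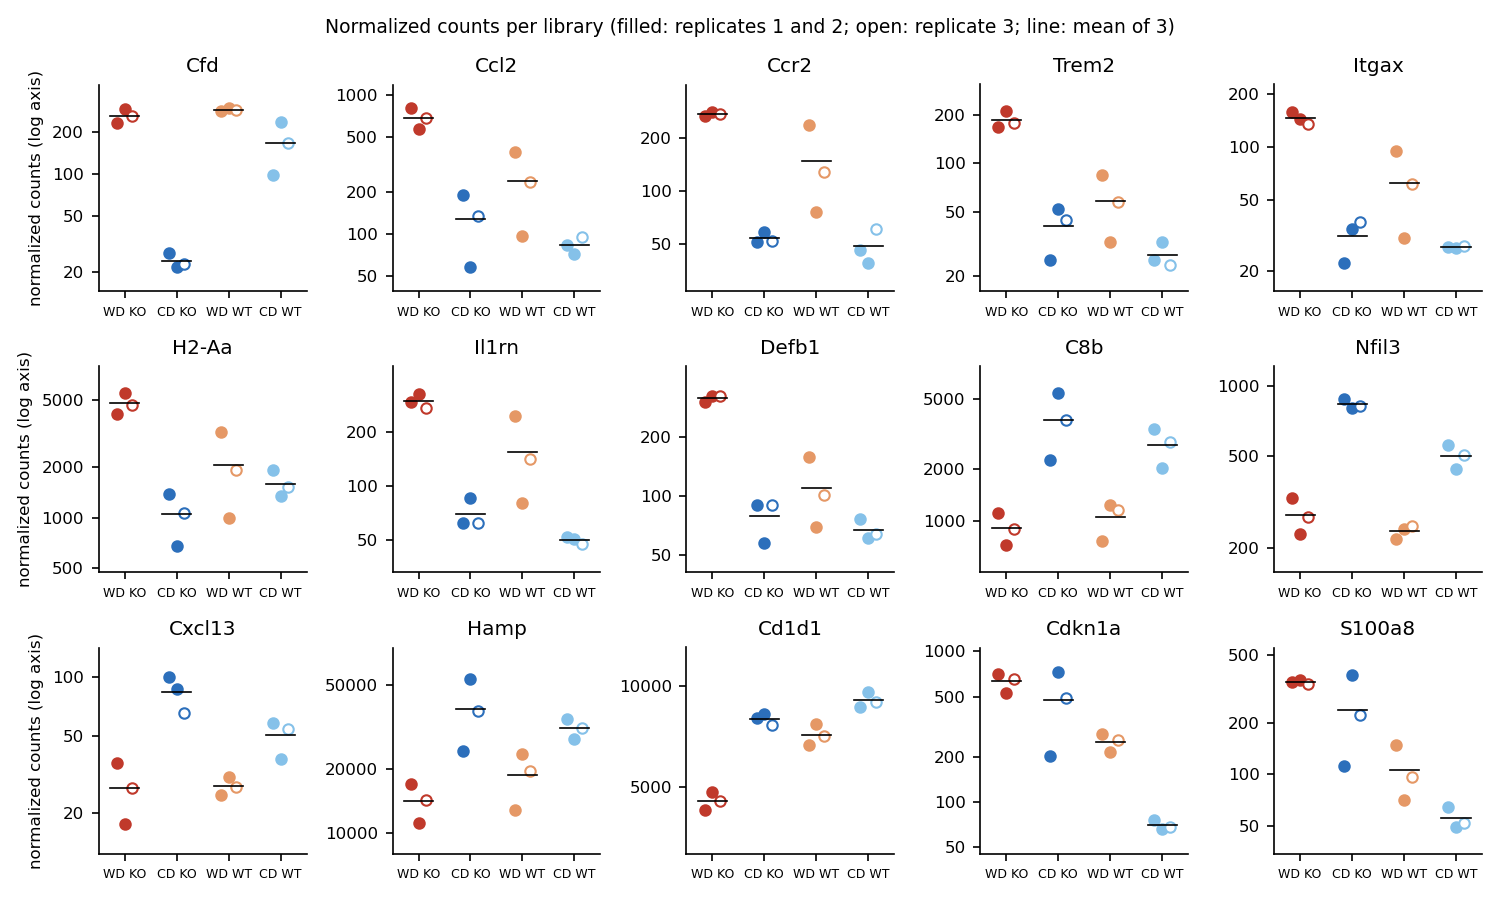
Normalized counts of 15 genes on log axes, 1 panel per gene, in Western-diet (WD) knockouts, control-diet (CD) knockouts, Western-diet wild type and control-diet wild type, with replicates 1 and 2 filled, replicate 3 open and the mean of 3 as a line. Cfd, Ccr2, Il1rn and Defb1 show Western-diet knockout libraries far above the control knockouts, Nfil3, Cd1d1 and C8b lie below them, and Cdkn1a and S100a8 overlap, with control knockout replicate 2 as high as the Western-diet libraries.

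Genes of antigen presentation by MHC class II rose as a group. Class II molecules show peptides to CD4+ T cells on macrophages, dendritic cells and B cells, and their promoters share an X box and a Y box that the transactivator Ciita acts through. Of 9 tested members 8 passed as higher, against 37.3% of all genes, with a median of 1.51, and 6 passed with the 8 libraries, against 12.1% of all genes. H2-Aa, the alpha chain of I-A, had 4101, 5483 and 4665 normalized counts in WDSW knockouts and 1389, 683 and 1068 in CDNW knockouts, so the lowest Western-diet library lay 2.95-fold above the highest control library. The difference was 2.23 (SE 0.36, adjusted p = 0.00044, and 0.042 with 8 libraries). H2-Eb1, the beta chain of I-E, had 861, 1059.8 and 921 in WDSW knockouts and 274, 144 and 224 in CDNW knockouts (2.18). The beta chain H2-Ab1 and the invariant chain Cd74, which guards the peptide groove, differed by 2.15 and 1.91. Ciita itself, at a lower level, had 88.5, 108 and 117 in WDSW knockouts and 25.2, 37.0 and 49.4 in CDNW knockouts (1.51, SE 0.28, adjusted p = 0.0013). H2-DMa, which helps load peptides, differed by 1.27. The exception was H2-DMb2, with a difference of 0.14 (adjusted p = 0.72). In all 4 structural genes control replicate 2 was the lowest library and Western-diet replicate 2 the highest. Their median under the other 3 scalings stayed above 0, at 0.78 to 1.32 for the whole list.

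The promoters of both class II chains in the RefSeq promoter table are shown because these genes moved together and because Ciita, which acts at their shared boxes, moved with them. The 250 bases before the annotated start on GRCm38.p6 are given 5′ to 3′ on the gene's strand, with the Y box letters CTGATTGG, which hold an inverted CCAAT, in capitals.
H2-Aa, chr17:34287824-34288073, minus strand: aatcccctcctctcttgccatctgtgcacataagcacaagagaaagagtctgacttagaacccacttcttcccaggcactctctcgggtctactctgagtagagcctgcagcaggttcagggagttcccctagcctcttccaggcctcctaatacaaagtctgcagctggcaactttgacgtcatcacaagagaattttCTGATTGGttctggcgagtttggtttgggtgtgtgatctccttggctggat
H2-Eb1, chr17:34305617-34305866, plus strand: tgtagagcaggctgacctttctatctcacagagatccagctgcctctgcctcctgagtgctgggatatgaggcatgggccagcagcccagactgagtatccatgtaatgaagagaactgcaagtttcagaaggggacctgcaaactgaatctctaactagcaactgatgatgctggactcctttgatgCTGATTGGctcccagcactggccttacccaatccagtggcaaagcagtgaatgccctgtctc
The 8 letters began 51 bases before the start of H2-Aa and 62 bases before that of H2-Eb1, on the gene's strand in both. Searched on both strands, they were found in 3.83% of 32851 promoter windows of this length, and in 12 of the 335 tested genes with an entry (3.58%). The other 4 class II genes with an entry, H2-DMa and H2-DMb2 among them, do not hold these letters in this window, and no entry was used for H2-Ab1, Cd74 and Ciita. A match is a description of the letters.

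A list of class I antigen presentation genes that also holds general proteasome subunits and the lipid-presenting Cd1d1 gave a different picture. Of 12 tested, 2 passed as higher and 3 as lower, against 37.3% and 7.95% of all genes, with a median of -0.07. The 2 higher were Tap1 and Tapbp, and the 3 lower were Cd1d1 and the proteasome subunits Psmb5 and Psmc2. None was higher and 1 lower with the 8 libraries. The other 3 scalings gave none higher and 7, 3 and 11 lower. The largest difference was a fall of Cd1d1, a lipid-presenting molecule seen by natural killer T cells. It had 4284, 4837 and 4563 normalized counts in WDSW knockouts and 8029, 8286 and 7666 in CDNW knockouts (-0.81, SE 0.083, adjusted p = 6.2e-05, and 0.033 with 8 libraries). Its 3 libraries per group lay within a narrow band, and the groups were far apart. B2m, the light chain of class I molecules, differed by -0.028 and did not pass.

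Chemokine ligands split, with 10 of 20 higher, 4 lower and a median of 0.57, where all genes gave 37.3% higher and 7.95% lower. With the 8 libraries 2 were higher and 2 lower. The median was 0.30, 0.21 and -0.16 under the other 3 scalings, with 6, 5 and 4 higher and 4, 3 and 5 lower. Ccl2, which draws Ccr2-bearing monocytes, had 807, 572 and 681 in WDSW knockouts and 191, 57.5 and 134 in CDNW knockouts. The groups did not overlap, yet control replicate 2 stood at 0.300 of control replicate 1. The difference was 2.57 (SE 0.47, adjusted p = 0.0011), and with the 8 libraries it was 2.68 and missed the threshold (0.054). Cxcl10, an interferon-induced ligand of Cxcr3, had 235, 166 and 213 in WDSW knockouts and 81.0, 43.4 and 63.2 in CDNW knockouts (1.72, adjusted p = 0.00044, and 0.045 with 8 libraries). Cxcl9, another Cxcr3 ligand induced by interferon gamma, had 405, 426 and 422 in WDSW knockouts and 264, 95.8 and 197 in CDNW knockouts (1.29, adjusted p = 0.014). Ccl5, a chemokine made by T cells and macrophages, differed by 0.92 (adjusted p = 0.038). Neither Cxcl9 nor Ccl5 passed with the 8 libraries, and Ccl5 lost the call without any 1 of 5 knockout libraries (0.63 to 0.96), all but CDNW replicate 1, or without CDNW wild-type replicate 3 (adjusted p = 0.0504). Among the falls, Cxcl13, which guides B cells, had 36.1, 17.6 and 27.0 in WDSW knockouts and 99.9, 86.8 and 65.2 in CDNW knockouts (-1.64, SE 0.26, adjusted p = 0.00046, and 0.037 with 8 libraries). Cxcl12, the ligand of Cxcr4, differed by -0.52 (adjusted p = 0.00033). Of 11 chemokine receptors 5 were higher and none lower, against 37.3% and 7.95% of all genes, with a median of 0.44. With the 8 libraries 1 was higher, where all genes gave 12.1%. The receptors gave 4, 2 and 1 higher and 0, 1 and 2 lower under the other 3 scalings.

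The Cxcl10 promoter is shown because this ligand is both an interferon and an NF-kB target and was among the genes that passed under all scalings. Capitals mark the letters GAAANNGAA, the core of an interferon-stimulated response element, and GGGACTTCC, a form of the NF-kB site, in the 250 bases before the RefSeq start on GRCm38.p6.
Cxcl10, chr5:92348890-92349139, minus strand: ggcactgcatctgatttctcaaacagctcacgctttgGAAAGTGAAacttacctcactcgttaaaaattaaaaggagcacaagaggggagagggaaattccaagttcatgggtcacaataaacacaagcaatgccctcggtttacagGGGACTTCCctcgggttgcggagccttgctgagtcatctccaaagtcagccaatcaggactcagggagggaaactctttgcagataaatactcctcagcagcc
The interferon element began 213 bases before the start. The NF-kB letters began 103 bases before it. Searched on both strands, GAAANNGAA was found in 7.13% of all windows and in 12.2% of the 335 tested genes with an entry, and GGGACTTCC in 0.685% and 0.597%, and the matches of the 2 motifs in Cxcl10 do not overlap.

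Interferon-response genes had 14 of 23 higher and 2 lower, against 37.3% and 7.95% of all genes, with a median of 0.42. With the 8 libraries 6 were higher, against 12.1% of all genes. Counts under the other 3 scalings were 10, 8 and 5 higher and 5, 5 and 10 lower. Ifi204, an interferon-inducible DNA sensor, had 325, 312 and 297 in WDSW knockouts and 93.6, 125 and 104 in CDNW knockouts (1.53, SE 0.19, adjusted p = 0.00023). Its lowest Western-diet library was 2.37 times its highest control library. Irf7, the main inducer of type I interferon genes, had 593, 555 and 574 in WDSW knockouts and 188, 345 and 251 in CDNW knockouts (1.18). Irf8, a transcription factor of monocytes and dendritic cells, differed by 1.37, and Ifngr1, a chain of the interferon gamma receptor, by 0.74. Bst2, which tethers budding virus, differed by 0.61 under the deposited scaling but by -0.12 when libraries were recentred on their medians. The list's median turned to -0.30 under recentring on the library median and stayed above 0 under the other scalings.

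Among genes of the interleukin 1 family and inflammasome, 7 of 17 were higher, near the 37.3% of all genes, and 3 lower, with a median near 0 (-0.0020). With the 8 libraries 2 were higher and 1 lower, and under the other 3 scalings 3, 2 and 2 were higher and 5, 7 and 10 lower. Il1rn, the receptor antagonist that blocks interleukin 1, had 292, 325 and 273 in WDSW knockouts and 62.0, 85.5 and 62.2 in CDNW knockouts, a fold of 4.23 (log2 2.08, SE 0.30, adjusted p = 0.00033). Il1a, the alarmin form of interleukin 1, had 192, 201 and 203 in WDSW knockouts and 90.4, 79.2 and 84.0 in CDNW knockouts (1.23, adjusted p = 1.5e-05, and 0.033 with 8 libraries). Both genes were well separated between diets. Casp1, the protease of the inflammasome, differed by 0.94, but by 0.23 under quantile normalization and 0.21 under recentring on the library median, and passed under neither, nor with the 8 libraries (0.063). Il1b, the secreted cytokine that Casp1 activates, had 186, 102 and 148 in WDSW knockouts and 73.6, 98.3 and 94.8 in CDNW knockouts. Its difference of 0.67 passed (adjusted p = 0.021) but lost the call without WDSW knockout replicate 1 (0.47) or 3 (0.64), or CDNW knockout replicate 1 (0.54), and was -0.063 under quantile normalization and -0.058 under recentring on the library median. Sigirr, a receptor that dampens interleukin 1 signals, was lower, with 197, 227 and 192 in WDSW knockouts and 319, 398 and 307 in CDNW knockouts (-0.73, adjusted p = 0.00061). Tnf was near the detection filter, with 20.6, 30.5 and 25.5 in WDSW knockouts and 12.6, 23.0 and 15.8 in CDNW knockouts, and did not pass (0.57, adjusted p = 0.18). Of 26 genes of the TNF superfamily 4 were higher, a smaller share than the 37.3% of all genes, and none lower, with a median of 0.21. Of these, 1 was higher with the 8 libraries, and under the other 3 scalings none was higher and 5, 9 and 14 were lower.

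Of 27 Toll-like receptor and NF-kB genes, 14 were higher and none lower, against 37.3% and 7.95% of all genes, with a median of 0.36. With the 8 libraries 2 were higher, where all genes gave 12.1%. The other 3 scalings gave 10, 5 and 4 higher and 6, 10 and 13 lower. Tlr4, the receptor for lipopolysaccharide, had 204, 206 and 169.9 in WDSW knockouts and 78.9, 63.8 and 94.8 in CDNW knockouts (1.29, SE 0.18, adjusted p = 0.00026). Cd14, which hands lipopolysaccharide to Tlr4, had 174, 131 and 157 in WDSW knockouts and 38.9, 88.1 and 49.4 in CDNW knockouts (1.45, and an adjusted p of 0.099 with 8 libraries). The lipopolysaccharide receptor pair thus lay above the controls in every Western-diet library. Nfkb2, the precursor of p52 in the noncanonical pathway, differed by 1.04. The list's median was 0.09 after recentring on the median ratio, -0.08 after quantile normalization and -0.37 after recentring on the library median.

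In a list of Fc receptors and genes of ITAM signalling, 10 of 14 were higher, against 37.3% of all genes, with none lower and a median of 1.07. The list also holds inhibitory receptors, so the count is not one of activating receptors and kinases alone. With the 8 libraries 5 were higher, against 12.1% of all genes. Under the other 3 scalings 9, 7 and 7 were higher and 1, 1 and 5 lower. Syk, the kinase that binds phosphorylated ITAMs, had 277, 288 and 279.6 in WDSW knockouts and 106, 109 and 121 in CDNW knockouts (1.33, SE 0.16, adjusted p = 0.00017). Each group's 3 libraries lay close to one another. Fcer1g, the common Fc receptor gamma chain, differed by 1.20, and Lilrb4, an inhibitory receptor of myeloid cells, by 1.48. The adaptor Blnk and the kinase Btk, listed here as B cell markers though myeloid cells express them too, differed by 1.62 and 1.28. The B cell receptor component Cd79b did not pass (0.30, adjusted p = 0.34).

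Endothelial and adhesion genes were higher as well. All 7 endothelial markers passed as higher, against 37.3% of all genes, with a median of 0.89. With the 8 libraries 3 of them passed, against 12.1% of all genes. Under the other 3 scalings 5, 3 and 2 were higher and 0, 0 and 1 lower, with medians of 0.63, 0.23 and 0.17. Of 20 integrin and adhesion genes 14 were higher and 1 lower, against 37.3% and 7.95% of all genes. With the 8 libraries 6 were higher, where all genes gave 12.1%. Under the other 3 scalings 10, 7 and 5 were higher and 2, 2 and 5 lower. Vcam1, which holds leukocytes on activated endothelium, had 192, 230.1 and 182 in WDSW knockouts and 61.0, 80.4 and 80.0 in CDNW knockouts (1.44, SE 0.18, adjusted p = 0.00025). Sele, the selectin of activated endothelium, had 35.2, 46.2 and 34.0 in WDSW knockouts and 17.9, 16.6 and 14.8 in CDNW knockouts (1.17). For both genes the diets did not overlap. Pecam1, a pan-endothelial junction protein, differed by 0.66, which became -0.071 after recentring on the library median. Cd44, the receptor for hyaluronan, and Itgb2, the beta chain of the leukocyte integrins, differed by 1.58 and 1.54. In the TGF-beta list 6 of 8 were higher, 4 with the 8 libraries, against 37.3% and 12.1% of all genes, with a median of 0.88. Under the other 3 scalings 5, 5 and 3 were higher and 0, 1 and 2 lower. Tgfb1, the profibrotic cytokine itself, had 512, 534 and 507 in WDSW knockouts and 261, 227 and 252 in CDNW knockouts (1.07, SE 0.17, adjusted p = 0.00044). Its target Tgfbi, a matrix protein, and its receptors Tgfbr1 and Tgfbr2 differed by 1.05, 0.77 and 0.99. Plau, the urokinase that activates plasmin, differed by 1.81, Ptafr, the receptor for platelet-activating factor, by 1.77, and Cd83, a marker of mature dendritic cells, by 1.75. Of 8 dendritic cell markers 7 were higher, 3 with the 8 libraries, against 37.3% and 12.1% of all genes, with a median of 0.73. Under the other 3 scalings 2, 3 and 2 were higher, the last with 1 lower.

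**Figure D3:**
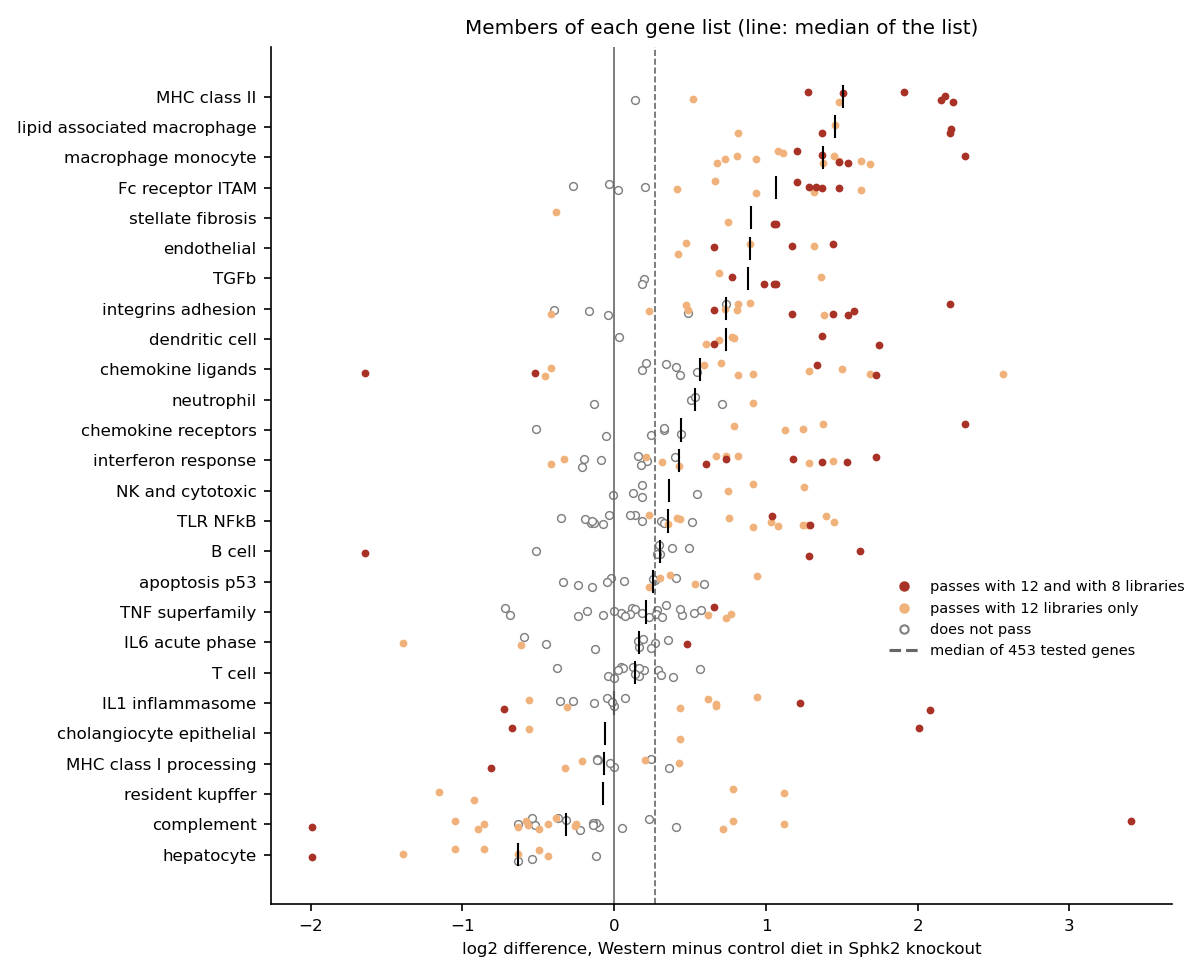
Log2 differences, Western minus control diet in knockouts, for the tested members of each list, with lists ordered by their median (short line), members that pass with 12 and with 8 libraries in dark red, those that pass with 12 libraries in orange and those that do not pass open. MHC class II and macrophage lists sit at the top with medians of 1.51, 1.45 and 1.37, and hepatocyte and complement lists at the bottom with medians of -0.63 and -0.32, beside 0.27 for all tested genes (dashed).

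None of 15 T cell markers passed by limma, against 45.3% of all genes in either direction, and 1 had an unadjusted p under 0.05, with a median of 0.14. Cd3e, part of the T cell receptor complex, had 30.9, 22.2 and 23.2 in WDSW knockouts and 30.5, 15.3 and 30.6 in CDNW knockouts, and Cd4 and Cd8a differed by 0.19 and 0.17 without passing. Recentred on the library median, 10 of the 15 passed as lower, where 228 of all 453 genes did. Of 8 natural killer and cytotoxic genes 3 were higher, a share close to that of all genes, and none with the 8 libraries. Of 9 B cell markers 2 were higher and 1 lower, also with the 8 libraries, against 37.3% and 7.95% of all genes with 12 libraries. Of 5 neutrophil markers 1 was higher, against 37.3% of all genes, none with the 8 libraries and 3 without control replicate 2. The alarmin S100a8 had 348, 355 and 341 in WDSW knockouts and 111, 384 and 221 in CDNW knockouts (0.71, adjusted p = 0.13). The Western-diet libraries agreed closely, while the controls spread 3.45-fold and overlapped them. Its partner S100a9 behaved alike, with 347, 384 and 343 in WDSW knockouts and 119.9, 446 and 295 in CDNW knockouts (0.51, adjusted p = 0.31). Without control replicate 2 the difference in S100a8 was 1.14 (adjusted p = 0.013), and without control replicate 1 it was 0.25. Cdkn1a, the p53 target that halts the cell cycle, had 713, 529 and 659 in WDSW knockouts and 203, 725 and 493 in CDNW knockouts (0.59, adjusted p = 0.18), and 0.99 without control replicate 2 (adjusted p = 0.018) against 0.073 without control replicate 1.

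Genes that hepatocytes express were lower. Of 10 hepatocyte markers none was higher and 7 passed as lower, against 7.95% of all genes, with a median of -0.63. With the 8 libraries 1 passed as lower, against 1.55% of all genes. Under the other 3 scalings 9, 3 and 10 passed as lower, with medians of -0.90, -0.19 and -1.36. C8b, a chain of the membrane attack complex, had 1119, 728 and 897 normalized counts in WDSW knockouts and 2239, 5419.7 and 3786 in CDNW knockouts. The highest Western-diet library stood at 0.500 of the lowest control library, and the fold was 0.252 (log2 -1.99, SE 0.30, adjusted p = 0.00037, and 0.042 with 8 libraries). Hamp, the iron hormone hepcidin, had 17096, 11185 and 14247 in WDSW knockouts and 24506, 53765 and 37636 in CDNW knockouts (-1.40, SE 0.28, adjusted p = 0.0018). C3, the central complement component, had 42684, 39310.5 and 40400.0 in WDSW knockouts and 50960.3, 108467 and 78992 in CDNW knockouts (-0.90, adjusted p = 0.0047). The Western-diet levels of C3 lay close together, 1.09-fold from lowest to highest, and the spread was in the controls. Hc, which encodes complement component 5, and the clotting and complement regulator Vtn differed by -1.09 and -0.86. C8a, the partner of C8b, differed by -1.05 (adjusted p = 0.011), but by -0.32 under quantile normalization, where it did not pass. In these genes control replicate 2 stood highest, at 1.99 to 3.03 times control replicate 1, with replicate 3 between. Summed over the hepatocyte list, levels were 67372 to 77266 in WDSW knockouts and 91202 to 185504 in CDNW knockouts. Without control replicate 2, 7 of the 10 still passed as lower, the list's median was -0.45, and C8a differed by -0.67, C3 by -0.64 and Hamp by -1.12. C9, the pore-forming component, did not pass (-0.54, adjusted p = 0.05), except without control replicate 1 (-0.80, adjusted p = 0.0017).

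The complement list as a whole had 4 higher and 12 lower of 29, against 37.3% and 7.95% of all genes, with a median of -0.32. The 8 libraries gave 1 higher and 1 lower. The other 3 scalings gave 4, 5 and 2 higher and 18, 9 and 24 lower. The 4 that rose were Cfd, C1qa, C1qb and properdin (Cfp), which macrophages or fat cells are known to make. Cfd, the serine protease factor D, also called adipsin and a product of fat cells, gave the largest difference of the panel. It had 234, 293 and 262 normalized counts in WDSW knockouts and 27.3, 21.7 and 22.7 in CDNW knockouts. The libraries of each diet lay close together and the diets far apart, with a fold of 10.6 (log2 3.40, SE 0.24, adjusted p = 4.6e-06, and 0.023 with 8 libraries). Defb1, an epithelial antimicrobial peptide, had 299, 322 and 324 in WDSW knockouts and 89.4, 57.5 and 89.9 in CDNW knockouts (2.01, adjusted p = 0.00025). It rose while Ceacam1, an adhesion molecule of hepatocytes and bile ducts that aids insulin clearance, and Pigr, which carries IgA into bile, were lower, by -0.67 and -0.56. The direction of Pigr was 0.095 under quantile normalization.

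The fall with the lowest adjusted p was that of Nfil3, a basic leucine zipper repressor linked to the circadian clock and to innate lymphoid cell development. It had 328, 231 and 274 normalized counts in WDSW knockouts and 876, 803 and 821 in CDNW knockouts. The difference was -1.60 (SE 0.13, adjusted p = 7.5e-06, and 0.023 with 8 libraries), and it was -1.86, -2.05 and -2.32 under the 3 other scalings. Recentring on the median ratio or on the library median lowers the difference of every gene by the same amount. Stat3, the signal transducer of interleukin 6, differed by -0.61, and Jak2, a kinase upstream of it, by 0.48, or -0.25 after recentring on the library median. In the interleukin 6 and acute phase list 1 of 12 was higher and 2 lower, against 37.3% and 7.95% of all genes. The median was 0.16, and 1 was higher with the 8 libraries. The other 3 scalings gave none higher and 5, 5 and 9 lower.

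Most of these differences had the same sign in wild-type mice. In wild type the diet contrast gave 39 genes (8.61%), 22 higher (4.86%) and 17 lower (3.75%), and none passed with the 8 libraries, where 43 had an unadjusted p under 0.05. WDSW wild-type replicate 2 lay near the control libraries for many macrophage genes, and without it 94 genes passed. Of the 205 genes of the knockout, the wild-type difference had the same sign for 143 of the 169 higher and 30 of the 36 lower. It was the smaller in size for 137 and 28 of these, a count without a test. Choosing genes by their knockout difference makes a smaller wild-type difference likely, so this count does not compare the genotypes. The same-sign share among all 453 genes was not counted. Over those genes the median difference was above 0 in both genotypes, 0.27 in the knockout and 0.089 in wild type. Of the 205, 19 higher and 9 lower passed in wild type in that direction. Nfil3 had 219.7, 242 and 249 in WDSW wild type and 557, 439.9 and 504 in CDNW wild type (-1.07, adjusted p = 0.0011). C8b and Ccr2 differed in wild type by -1.38 and 1.44. Trem2 had 84.5, 32.6 and 57.7 in WDSW wild type and 25.3, 32.5 and 23.5 in CDNW wild type, with the Western-diet libraries spread from the control level upwards (0.99, adjusted p = 0.086). The macrophage list had a median of 0.56 in wild type, with 2 of 16 passing, and the MHC class II list 0.20 with none of 9 passing by limma and 1 at an unadjusted p under 0.05.

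The test of the difference between the knockout and the wild-type diet effect gave 6 genes (1.32%), 5 with the larger value in knockouts (1.1%) and 1 with the smaller (0.221%), and none with the 8 libraries, where 43 had an unadjusted p under 0.05. With age as a covariate, and in most fits that left out 1 library, only 1 gene passed. Among the 6 genes the largest difference was that of Cfd. Cfd had 281, 296 and 289.6 in WDSW wild type and 99.3, 237 and 167 in CDNW wild type, a difference of 0.87, so its diet effect in the knockout exceeded that in wild type by 2.54 (SE 0.34, limma adjusted p = 0.0043). The levels on the Western diet were close in both genotypes. On the control diet the knockout libraries lay at 27.3, 21.7 and 22.7, below every wild-type library. Those control-diet knockouts were 250 to 259 days old and the control-diet wild types 231 to 232, so genotype and age cannot be told apart there. H2-Eb1 had 596, 206 and 356 in WDSW wild type and 369.9, 282 and 384 in CDNW wild type (0.043), and its diet effect differed between genotypes by 2.14 (SE 0.46, adjusted p = 0.041). For H2-Aa, H2-Ab1 and Cd74 the same contrast was 2.01, 1.95 and 1.76, each with an adjusted p of 0.054. Il1a differed by 0.80 between genotypes. Irf1, an interferon-induced transcription factor, differed by 0.16 in the knockout and -0.62 in wild type. Tapbp, which loads class I molecules, differed by 0.20 in the knockout and -0.30 in wild type, and the knockout difference did not pass without WDSW knockout replicate 1 or 3 or CDNW knockout replicate 1 or 3. The lymphotoxin beta receptor Ltbr differed by -0.18 in the knockout and 0.33 in wild type. Cdkn1a had 284, 213 and 257 in WDSW wild type and 75.9, 66.0 and 68.5 in CDNW wild type (1.82, adjusted p = 0.014), but the difference from the knockout's effect did not pass (-1.23, adjusted p = 0.12).

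**Figure D4:**
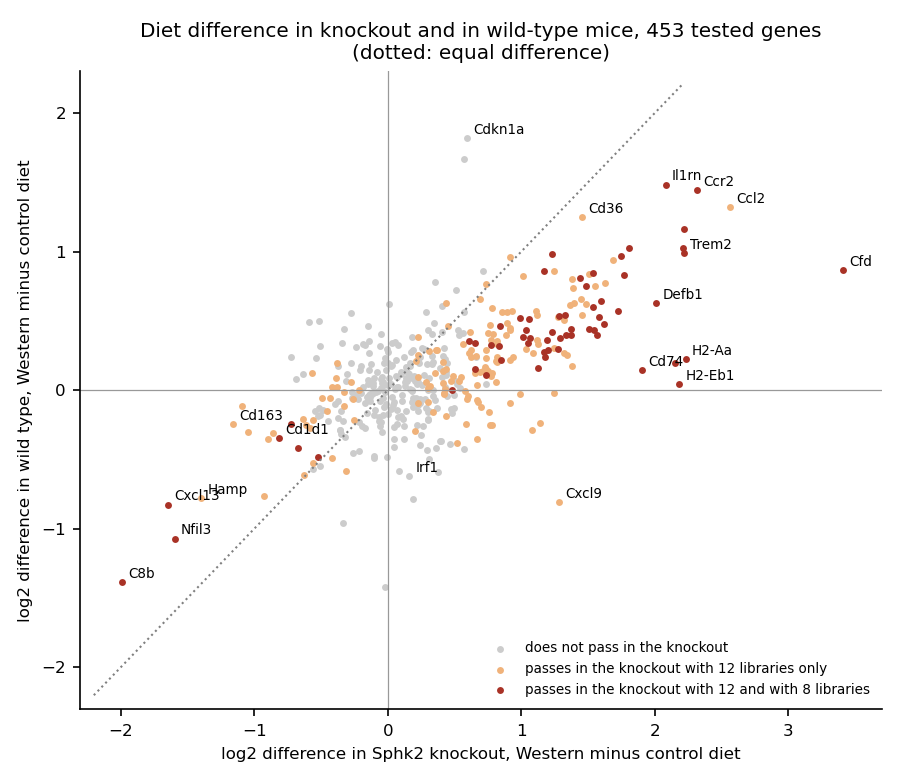
Each point is 1 of the 453 tested genes, with the log2 diet difference in knockouts on the x axis and in wild-type mice on the y axis, and with the dotted line where both are equal. Cfd, at 3.40 in knockouts and 0.87 in wild type, lies furthest to the right, the class II genes H2-Aa, H2-Eb1 and Cd74 lie near 0 on the y axis, and Cdkn1a at 1.82 in wild type did not pass in the knockout.

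Age moved with diet in the knockout, and less so in wild type (226 to 232 days on WDSW, 231 to 232 on CDNW). Replicates 1 and 2 on the Western diet were 221 and 217 days old, against 259 and 253 days in the controls, and replicate 3 was 252 days old on the Western diet and 250 days old in the controls. With age as a covariate in the 12-library fit 92 genes passed, 74 higher and 18 lower, all of them among the 205. Adjusted p-values were then 0.00083 for Cfd, 0.0017 for Nfil3, 0.0019 for Il1a, 0.017 for Ccr2, 0.019 for Trem2 and 0.018 for H2-Aa. Of the 69 genes given with values that passed, 9 did not pass with age, namely Tapbp (0.18), Ccl5 (0.21), Marco (0.18), Il1b (0.12), Cxcl9 (0.11), Cd36 (0.097), C8a (0.084), Cd14 (0.054) and Sele (0.054). With age and the 8 libraries none passed, and 40 had an unadjusted p under 0.05. In those 8 libraries age and diet cannot be told apart in the knockout. Within groups, age varied mostly through WDSW knockout replicate 3. The SD of age was 19.2 days in its group and 0.58 to 4.58 days in the others. That library lay near the average of replicates 1 and 2, so passing with age in the 12-library fit does not separate diet from age.

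Some calls of single genes ended with a setting. Without replicate 3 of each group, 21 of the 69 no longer passed, namely C1qa, C1qb, C3, C8a, Casp1, Ccl2, Ccl5, Cd14, Cd163, Cd36, Cfp, Cxcl9, Hamp, Hc, Il1b, Marco, Nfkb2, Pigr, Stat3, Tapbp and Vtn, and all 21 had the same sign. Under recentring on the median ratio Ccl5, Il1b, Jak2 and Tapbp were lost. Quantile normalization lost these 4 and C8a, Casp1, Cxcl12, Cxcl9, Pecam1, Pigr and Vtn. Recentring on the library median lost Bst2, C1qa, Casp1, Ccl5, Cd36, Cfp, Cxcl9, Ifngr1, Il1b, Jak2, Nfkb2, Pecam1, Sele, Tgfbr1 and Tgfbr2, and turned Tapbp.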

How the data were processed

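RNA was measured with target-specific barcoded probes on total RNA, per the labels' protocols. The deposited workbook holds log2 normalized counts per the file headers and values. The power of 2 of a value was a whole multiple of 1 factor per library for 100% of values, so whole counts could be recovered. No source used here states how the authors set the factors, or any background or reference-gene step. The planned test took the values as linear, so they were returned to that scale and log2(value + 1) was taken. Genes with a mean of at least 20 over 12 libraries were fitted with limma 3.58.1 in R 4.3.3, using a mean per group, a variance trend, two-sided p-values and Benjamini-Hochberg adjustment at 0.05 within each comparison. The fit was tested on simulated data. Log2 differences understate the change of low genes. With 3 libraries against 3 no exact permutation p can fall under 0.1, so none was used.

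Groups followed the workbook's headers, which match the sample descriptions and titles. A deposited value table with the same log2 values holds another animal's values in 12 of 12 labelled columns, and was used as an alternative. The label for time on the diet, which climbs by 1 week from mouse to mouse (16 to 27 weeks), was set aside. Replicate numbers name libraries and pair nothing.

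The members, the 27 gene lists and the rule for named genes were chosen with earlier results of these data known. The rule took the 15 largest rises and falls that passed, up to 4 members of each list with at least 3 tested, up to 10 genes each of the wild-type and interaction contrasts by p, and a fixed set of 22 genes. It selected 117 genes, of which the text gives values for 75. Another 7 (B2m, Cd36, Cd79b, Cfp, Ciita, H2-DMb2 and Irf7) were named after their values were seen. Lists overlap. Promoter sequences are RefSeq's on GRCm38.p6. Alternatives changed pseudocount, filter, scaling, variance model, libraries, covariates and source of values. Those with replicates 1 and 2 alone were added after seeing the data.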

Additional observations from a re-analysis of the deposited data

Results flagged for a closer look

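For 6 genes the diet effect in knockouts differed from that in wild type by limma's test of the difference (adjusted p under 0.05 over 453 genes, 12 libraries). None of the 6 passed with replicates 1 and 2 alone. The fit with age, and most fits that left out 1 library, kept only 1 gene passing. Cfd had a difference of 2.54 between the effects, 3.40 in knockouts and 0.87 in wild type, and kept 2.47 with the 8 libraries (adjusted p = 0.45). H2-Eb1 had 2.14, from 2.18 in knockouts and 0.043 in wild type (adjusted p = 0.041). Il1a had 0.80, from 1.23 in knockouts and 0.42 in wild type. Irf1 had 0.78, from 0.16 in knockouts and -0.62 in wild type. Tapbp had 0.50, from 0.20 in knockouts and -0.30 in wild type. Ltbr had -0.51, from -0.18 in knockouts and 0.33 in wild type.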

How the results depend on the processing

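No paired analysis was possible because the labels give animal numbers and no replicate numbers that groups share. In the knockout, 9 single changes of setting gave 181 to 283 genes, namely another pseudocount or none, no filter or a stricter one, 3 other scalings, no variance trend or a per-gene equal-variance test, and 192 came from the 6 knockout libraries alone. Leaving out 1 library gave 165 to 212. Counts moved to 92 with age as a covariate, 0 with the value table's columns as labelled (49 with an unadjusted p under 0.05), and 62 with replicates 1 and 2. With replicates 1 and 2 they were 63 recentred on the median ratio (44 higher, 19 lower), 65 quantile normalized (38 and 27), 10 by the per-gene test (9 and 1) and 0 with age. Recentred on the library median that fit gave 166 (27 and 139).

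In wild type the 39 genes became 71 recentred on the library median, 21 without the trend, 25 by the per-gene test, 19 from its own 6 libraries, 18 with age and 0 with the value table as labelled, where 22 had an unadjusted p under 0.05. Leaving out 1 library gave 3 to 94, with 94 without WDSW wild-type replicate 2, 12 without replicate 1 and 3 without replicate 3 of that group, and 4, 23 and 3 without CDNW replicates 1, 2 and 3. With replicates 1 and 2 it was 0 under every scaling, test and covariate run, with 41 to 61 at an unadjusted p under 0.05 by limma under the scalings, 27 with age and 37 by the per-gene test. The 6 genes of the contrast between genotypes became 2 without a filter, 39 with a mean of at least 50, 37, 27 and 66 under the median-ratio, quantile and library-median scalings, 2 without the trend, 1 with age and 0 with the value table (71 unadjusted). Leaving out 1 library gave 58 without CDNW knockout replicate 1 and 100 without WDSW wild-type replicate 1. It gave 4 without WDSW wild-type replicate 2, 11 without CDNW wild-type replicate 2, and 1 in every other such fit. With replicates 1 and 2 it was 0, and 1 by the per-gene test.

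Of the 82 genes given with values, 69 passed in the knockout, and 66 of these passed in all 12 fits that left out 1 library, the exceptions being Ccl5, Il1b and Tapbp. With replicates 1 and 2, 48 of the 69 passed. Directions of genes that passed in either fit turned as follows, and another 5, 7 and 7 genes that passed in neither turned under the median-ratio, quantile and library-median scalings, 2 with age and 3 with the value table. Under quantile normalization Il1b was at -0.063 and Pigr at 0.095, and under the median ratio Tapbp at -0.065. Recentred on the library median, Cfp was at -0.012, Il1b at -0.058, Pecam1 at -0.071, Bst2 at -0.12, Jak2 at -0.25, Tapbp at -0.53, Cd4 at -0.53, Irf1 at -0.57 and Cd3e at -0.68. With the value table as labelled, whose columns hold other animals, 19 that passed here turned: Bst2 (-0.066), Cxcl10 (-0.089), Cd36 (-1.03), Cfd (-1.42), Cd163 (0.015), Ceacam1 (0.039), Cxcl12 (0.049), Sigirr (0.090), Pigr (0.35), Cxcl13 (0.42), Stat3 (0.46), Hamp (0.53), Vtn (0.57), Nfil3 (0.68), Hc (0.70), C3 (0.74), C8a (0.83), C8b (0.95) and Marco (1.04). The cause of changes with scaling or age was not tested. Library totals of 440842 to 643638 counts leave genes near 20 normalized counts, such as Cd3e and Tnf, with wide counting error.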
